A study of Mus musculus with 23 samples.

Results

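The genes described here are 51 regulators of the cell cycle and of mitosis, taken as a fixed list of gene symbols and matched by name to the transcript records of the deposited tables. All 51 were present among the 22619 named genes. They were ordered by role: cyclins, cyclin-dependent kinases (CDKs) with their phosphatases and inhibitory kinases, Polo and Aurora kinases, the spindle assembly checkpoint, regulators of the anaphase-promoting complex (APC/C), separase and its partners, the chromosomal passenger complex, kinetochore proteins, spindle motors and cytokinesis proteins, and CDK inhibitors with the checkpoint kinase Chek1. RNA was sequenced from late 2-cell embryos, labelled 36 h after fertilization, and from late zygotes, labelled 14 h, whereas the study's methods give somewhat later times for both. The labels give the strain as B6D2F1 (C57BL/6xDBA/2), which in the study's methods is that of the egg donors, the sperm coming from C57BL/6 males. Oocytes at the germinal vesicle stage had been injected with siRNA against Etv5 (siEtv5), Mlx (siMlx) or Rfx1 (siRfx1), each a mixture of several siRNAs, or with a control siRNA (siCtrl), and all groups, siCtrl included, were then matured in vitro, fertilized and cultured. The labels speak of fertilization with sperm in vitro and the study's methods of sperm injection. The labels also carry the siRNA under a tag for overexpression and name the molecule as genomic DNA, whereas the titles and the study's methods describe siRNA and RNA sequencing, and the groups follow the siRNA names. Each of the 8 groups had 3 libraries except siEtv5 2-cell embryos, which had 2. The labels do not say how many embryos made up a library or whether libraries came from separate collections. The p-values therefore cover no more than the differences among the libraries sequenced, and some of these may be technical.

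An embryo carries its first divisions on RNA and protein stored in the oocyte. Entry into mitosis is driven by CDK1 bound to an A- or B-type cyclin, held back by phosphorylation by the WEE kinases and Pkmyt1 and released by the CDC25 phosphatases. Exit follows when the APC/C, with Cdc20 or Fzr1 bound, marks cyclin B and securin for destruction. In the mouse oocyte, several of these proteins have an oocyte form beside the somatic one, such as Wee2 beside Wee1, Aurkc beside Aurkb and Fbxo43 beside Fbxo5. In this material the transition of zygote to 2-cell embryo is also the time when maternal RNA is removed and the embryonic genome becomes active.

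Levels are given as FPKM (fragments per kilobase of transcript, scaled to the size of the library) as deposited, summed over the transcripts of a gene. Fold changes are differences of log2(FPKM + 1) after the libraries of a comparison were brought to a common scale, with the standard error (SE), and they understate the change of genes near 0. A gene is called higher or lower where limma's adjusted p was under 0.05 and the fold above 2. Higher, lower, rose and fell are relative to the common scale of the libraries, and amounts of RNA per embryo were not measured. Libraries held 119 to 991 Mb of aligned bases, and the 3 siRfx1 2-cell libraries were the shallowest, with 119 to 174 Mb. The cDNA was primed with oligo-dT and amplified, so the amount of an RNA and the length of its poly(A) tail cannot be told apart. Where a library held several embryos, a change in some of them and a smaller change in all of them cannot be told apart. Etv5 was at 8.98 and 5.55 FPKM in siEtv5 2-cell embryos, against 49.3, 43.7 and 44.6 in siCtrl 2-cell embryos, and at most 0.0792 FPKM in siEtv5 zygotes, against 0.680 to 2.01 in siCtrl zygotes. Rfx1 was at 1.43 to 1.53 FPKM in siRfx1 2-cell embryos, against 8.12 to 10.7 in siCtrl 2-cell embryos, and at 0.149 to 0.481 in siRfx1 zygotes, against 3.05 to 3.52 in siCtrl zygotes. Mlx was at 0 to 0.469 FPKM in siMlx zygotes, against 1.84 to 4.25 in siCtrl zygotes, but at 0.836, 2.26 and 4.05 in the 2-cell libraries labelled siMlx, against 2.42, 4.42 and 3.74 in siCtrl 2-cell embryos, where the groups overlapped. The targets were also low or uneven in other siRNA groups. Mlx was at 21.5, 0 and 0 FPKM in siRfx1 2-cell embryos and Rfx1 at 7.18, 2.09 and 5.48 in siEtv5 zygotes. Both lay on either side of the siCtrl range of their stage. Rfx1 was at 1.85 to 2.88 FPKM in siMlx and 4.39 to 4.94 in siEtv5 2-cell embryos and at 0.863 to 1.33 in siMlx zygotes, each below the siCtrl range of its stage, and Etv5 was at 6.73 to 12.59 FPKM in siRfx1 2-cell embryos. In the 2-cell libraries labelled siMlx, Etv5 was at 16.8, 29.9 and 52.4 FPKM, on either side of the siCtrl range. Summed FPKM of 10 oocyte and zygote markers was 583 to 590 in siEtv5, 150 to 287 in siMlx and 688 to 856 in siRfx1 2-cell embryos, against 377 to 433 in siCtrl 2-cell embryos, and was 2880 to 5759.2 in zygote libraries. That of 10 markers of the 2-cell embryo was 1910.5 to 2188.3 in siEtv5, 156 to 431 in siMlx and 347 to 496 in siRfx1 2-cell embryos, against 616 to 963 in siCtrl 2-cell embryos, and was 25.03 to 89.2 in zygote libraries. Stage markers thus differed between the siRNA groups at the 2-cell stage, and their part in the comparisons with siCtrl was not tested. The 10 markers of cumulus and granulosa cells summed to at most 19.3 FPKM in any library, with Inha at 0 in all of them. The highest were Star, at up to 16.3 FPKM in siRfx1 2-cell embryos, and Tnfaip6, at up to 15.7 in siCtrl 2-cell embryos. Cyp19a1 reached 8.45 FPKM in siCtrl zygotes. The 7 sperm markers summed to at most 35.1 FPKM in any library, with Prm2 at up to 34.4 in siEtv5 zygotes.

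In siCtrl embryos, 15 of the 49 members tested were higher in 2-cell embryos than in zygotes and 16 were lower. The same call was made for 63.9% of the 11094 genes tested, 37.0% higher and 26.9% lower, so the share of members called was near that of all genes. The median fold change of the members was 0.24 on the log2 scale, against 0.27 for all genes tested. On values as deposited these medians were 0.49 and 0.52, so directions depend on the common scale. The list as a whole did not move one way, and what follows is about which members stood on each side. The cyclin E gene Ccne1, the kinases Cdk1 and Cdk2, the phosphatase Cdc25c, Wee1 and Aurkb were among those that rose. Ccnb2, Chek1, Fbxo43, Cdkn1b, Plk4 and Pttg1 were among those that fell. Ccna1, a cyclin of the male germ line, was above 0 in 1 of 23 libraries, at 0.354 FPKM, and Ccnd2 did not reach the mean of 1 FPKM asked for in this comparison.

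The same comparison was made within siEtv5, siMlx and siRfx1 embryos, which share no library with each other or with siCtrl. Of 49 members tested in siEtv5 embryos 13 were higher and 11 lower in 2-cell embryos, where 60.9% of all genes were called, 37.9% higher and 23% lower. Of 48 tested in siMlx embryos 17 were higher and 18 lower, with 64.5% of all genes called, 35.4% higher and 29.1% lower. Of 49 tested in siRfx1 embryos 7 were higher and 18 lower, with 48.4% of all genes called, 18.7% higher and 29.7% lower. Among the 48 members tested in all 4 groups, 3 were called higher in each of them, namely Ccne1, Cdk1 and Cdc25c, against 16.4% of all genes. Another 10 were called lower in each of them, against 15.8% of all genes: Ccnb2, Cdc25b, Plk4, Aurkc, Fzr1, Fbxo43, Pttg1, Birc5, Cdkn1b and Chek1. Those 3 are 6.25% and those 10 are 20.8% of the 48 members. Aurkb, Ccnd1, Cdk2, Cenpa, Kif11 and Wee1 were called higher, and Ttk lower, in every group but siRfx1, whose 2-cell libraries were the shallowest. Espl1 was called higher, and Ccnb1 and Wee2 lower, in every group but siEtv5. Cdkn1a was called higher in every group but siCtrl. What depth and the number of libraries contributed to these calls was not tested. Ccnd3 alone was called in opposite directions, higher in siMlx and lower in siRfx1 embryos.

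**Figure D1:**
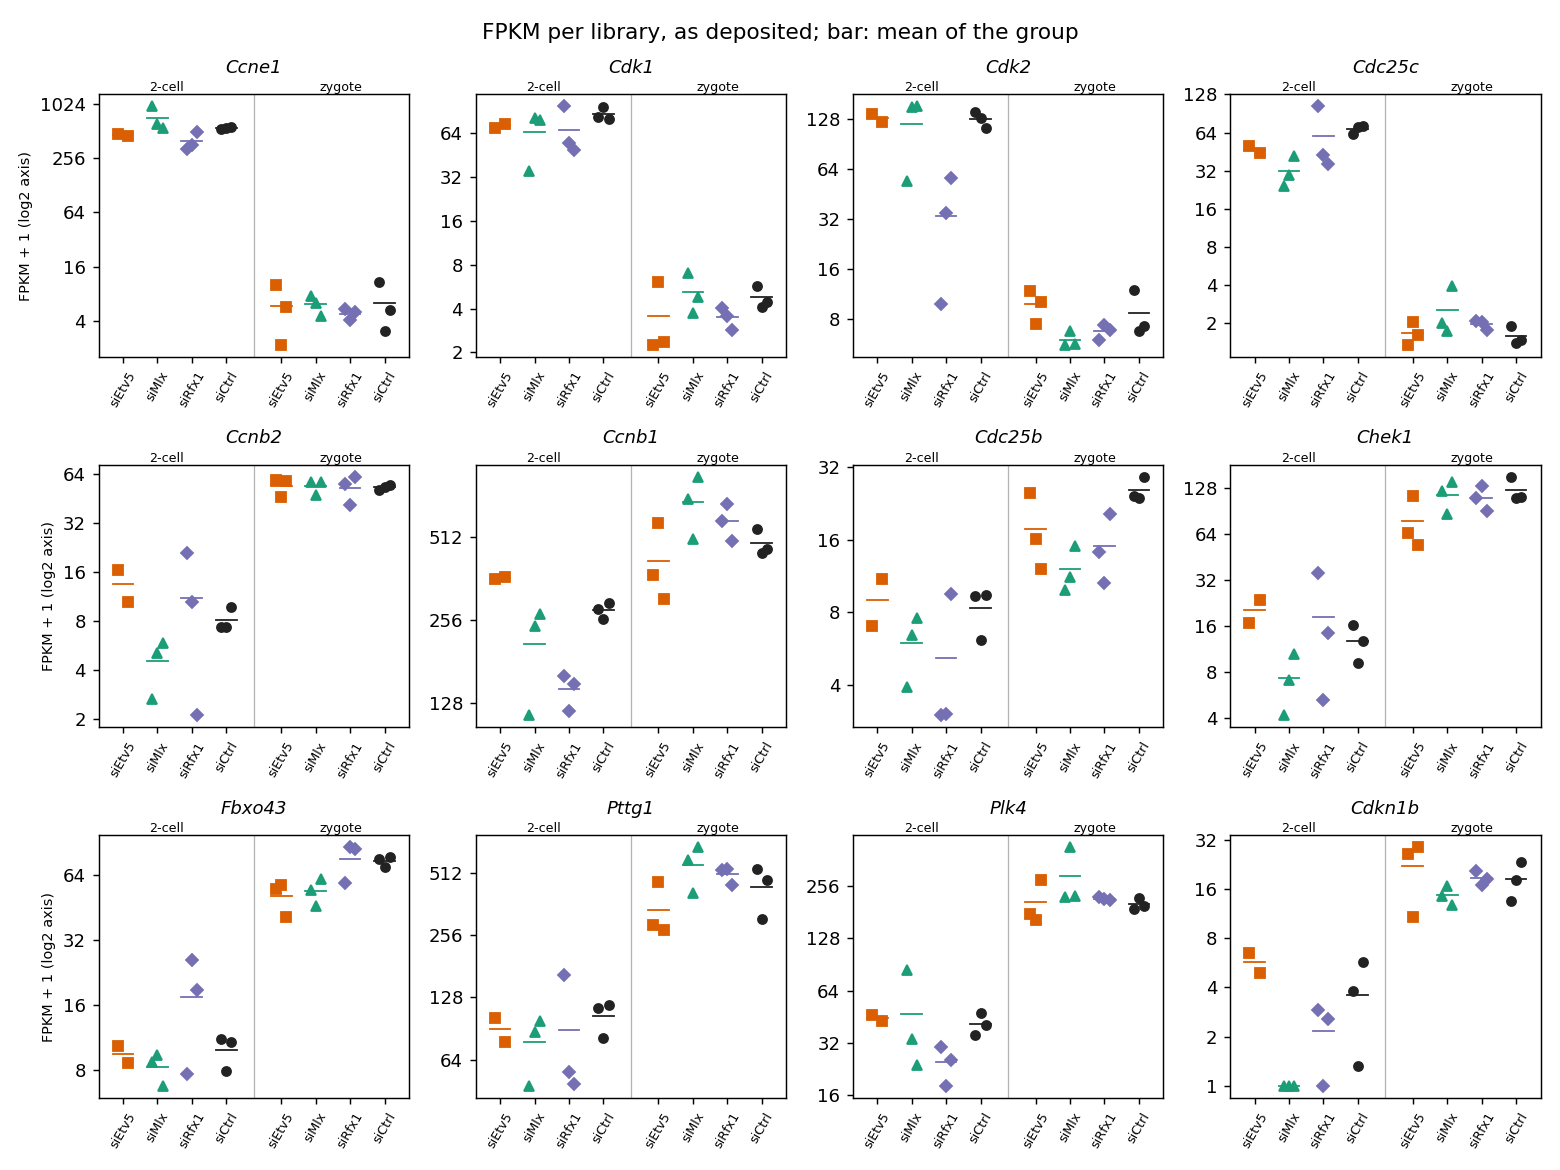
FPKM + 1 on a log2 axis for 12 members in each of the 23 libraries, 2-cell embryos left of zygotes within each panel, with the mean of each group as a bar. Ccne1 was at 320 to 961 FPKM in 2-cell libraries and 1.19 to 9.89 in zygote libraries, while Chek1 was at 3.16 to 34.3 in 2-cell libraries and 52.7 to 149 in zygote libraries.

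Sequence features of the members were described next, with no test, since promoters and 3′ ends carry known control elements of cell cycle genes. The cell cycle genes homology region (CHR, TTTGAA) and the CCAAT box are elements through which genes of late cell cycle phases are repressed and activated in dividing cells. Promoters of RefSeq genes (GRCm38.p6, 250 bases before to 50 after the start) were matched for 39 of 51 members and searched on both strands. A CHR was present in 16 of the 39, or 41%, against 11.9% of the 8084 promoters whose genes averaged 1 FPKM or more and 18.1% of all 27025 promoters. A CCAAT box was present in 27 of the 39, or 69.2%, against 40.3% of the promoters of expressed genes. Both were present in 15, or 38.5%, against 5.26% of the promoters of expressed genes. The E-box CACGTG, of the kind bound by MLX with its partners, was in 15.4% of member promoters against 10.4% of those of expressed genes, the ETS core CCGGAA in 28.2% against 29.4%, and the RFX-type motif GTTGCC in 15.4% against 12.8%. The combined CHR and CCAAT promoters stood on both sides of the stage comparison in siCtrl embryos, with 5 of 9 matched members that rose, 3 of 15 that fell and 7 of 14 tested members that were not called. Shown are 4 promoters, chosen after the values were seen, to set windows with both motifs in members that rose (Cdk1 and Cenpa) and one that fell (Ccnb2) beside a window with neither in a member that rose (Ccne1), in lower case with each CHR (TTTGAA or TTCAAA) and CCAAT box (CCAAT or ATTGG) in capitals.
Cdk1, chr10:69352863-69353162, minus strand: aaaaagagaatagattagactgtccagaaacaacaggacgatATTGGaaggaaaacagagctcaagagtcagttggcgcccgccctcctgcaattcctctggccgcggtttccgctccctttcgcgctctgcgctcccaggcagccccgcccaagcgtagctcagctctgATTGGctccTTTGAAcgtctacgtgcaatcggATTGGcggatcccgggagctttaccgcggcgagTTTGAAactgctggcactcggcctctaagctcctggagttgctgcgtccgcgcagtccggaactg
Cenpa, chr5:30666636-30666935, plus strand: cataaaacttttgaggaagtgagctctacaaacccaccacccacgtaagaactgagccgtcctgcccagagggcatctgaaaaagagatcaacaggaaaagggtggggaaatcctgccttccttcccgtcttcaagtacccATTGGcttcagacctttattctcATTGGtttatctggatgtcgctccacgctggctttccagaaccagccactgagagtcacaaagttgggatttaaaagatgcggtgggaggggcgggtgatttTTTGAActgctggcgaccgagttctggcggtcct
Ccnb2, chr9:70421505-70421804, minus strand: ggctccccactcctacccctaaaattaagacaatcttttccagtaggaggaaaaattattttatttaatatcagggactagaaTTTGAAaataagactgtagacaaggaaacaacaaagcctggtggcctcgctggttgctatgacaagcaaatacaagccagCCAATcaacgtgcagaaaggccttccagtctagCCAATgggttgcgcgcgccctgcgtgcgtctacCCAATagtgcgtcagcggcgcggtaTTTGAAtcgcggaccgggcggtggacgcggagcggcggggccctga
Ccne1, chr7:38107441-38107740, minus strand: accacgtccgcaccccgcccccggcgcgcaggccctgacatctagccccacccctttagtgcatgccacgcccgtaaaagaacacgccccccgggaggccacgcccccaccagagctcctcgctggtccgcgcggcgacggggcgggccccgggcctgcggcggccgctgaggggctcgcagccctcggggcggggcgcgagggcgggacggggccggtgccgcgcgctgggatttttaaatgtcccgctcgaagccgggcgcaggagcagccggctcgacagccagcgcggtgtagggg

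Cdk1 and Cenpa, which rose, and Ccnb2, which fell, carry both motifs, and the window of Ccne1, which rose most, carries neither. At the 3′ end, the cytoplasmic polyadenylation element (CPE, searched as TTTTAT or TTTTAAT in the last 100 bases of the most abundant transcript in the files) is bound by CPEB proteins, which control tail length and translation of stored mRNA in oocytes. It was present in 16 of 51 members, or 31.4%, against 19.2% of the 10943 genes that averaged 1 FPKM or more. The polyadenylation signal (AATAAA or ATTAAA) was present in 84.3% of members and 78.5% of those genes. A CPE was found in 6 of the 15 members that rose in siCtrl embryos, 5 of the 16 that fell and 5 of the 18 that were not called. The search did not ask in which order CPE and polyadenylation signal stand, and in Wee2 and Kif11 the CPE shown lies after the signal. Windows of 30 bases from 6 members are shown in mm9 coordinates, read 5′ to 3′ along the transcript, with CPE and polyadenylation signal in capitals, 3 from members that fell (Wee2, Plk4 and Aurkc) and 3 from members that rose (Aurkb, Cdc20 and Kif11).
Wee2, chr6:40416779-40416808, plus strand: tcattgtaAATAAAgaTTTTATcttatcca
Plk4, chr3:40620762-40620791, plus strand: caaatacaTTTTATaaAATAAAcacagtgg
Aurkc, chr7:6955756-6955785, plus strand: ctcTTTTATgaagtgatgttaATTAAAact
Aurkb, chr11:68865121-68865150, plus strand: agaacaacaTTTTATAATAAAgtcttaaat
Cdc20, chr4:118105516-118105545, minus strand: ttttaTTTTATtttttctAATAAAgttcgt
Kif11, chr19:37496320-37496349, plus strand: aattttttaaATTAAAttaTTTTAATtttt

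Among the cyclins of mitosis and meiosis, the B-type cyclins fell between the stages in siCtrl embryos and Ccna2 rose. Ccnb2, a partner of CDK1, was at 6.35, 6.41 and 8.74 FPKM in siCtrl 2-cell embryos, against 50.3, 52.5 and 53.9 in siCtrl zygotes (log2 fold change -2.95 ± 0.20 SE, limma adjusted p = 9.13e-06). Every one of the 11 2-cell libraries, at 1.11 to 19.9 FPKM, was below every one of the 12 zygote libraries, at 40.3 to 60.8. Ccnb1, the main mitotic cyclin B, was far more abundant and fell less, with 281, 257 and 294 FPKM in siCtrl 2-cell embryos, against 546, 449 and 464 in siCtrl zygotes (-1.06 ± 0.13). This fold was just past the limit of 2 and the change was -0.80 on values as deposited and -0.95 without siCtrl 2-cell replicate 2, both under the limit. Ccnb3, a cyclin of female meiosis, was at 1.13, 0.374 and 5.57 FPKM in siCtrl 2-cell embryos, against 6.45, 5.97 and 6.91 in siCtrl zygotes (-1.65 ± 0.51, limma adjusted p = 0.0201), and the call was lost when any of 4 of the 6 libraries was left out, siCtrl zygote replicate 1 or 3 or siCtrl 2-cell replicate 1 or 2, with an adjusted p of 0.0543 to 0.0732. Ccna2, the cyclin A of somatic cells, was at 517, 351 and 332 FPKM in siCtrl 2-cell embryos, against 114, 149 and 123 in siCtrl zygotes (1.35 ± 0.21, limma adjusted p = 6.14e-04). Ccna2 overlaps Exosc9 on the other strand, and reads of both cannot be told apart in these unstranded libraries. As a share of the summed FPKM of A- and B-type cyclins, which does not depend on the scale of a library, the B-type cyclins made up 35.9 to 48.1% in siCtrl 2-cell embryos, against 77.3 to 84.1% in siCtrl zygotes. Over all siRNA groups the share was 9.50 to 60.1% in 2-cell libraries and 58.5 to 88.7% in zygote libraries, and the only overlap was between siEtv5 libraries, with 59.0 and 60.1% in 2-cell embryos and a lowest value of 58.5% in zygotes.

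Of the cyclins of G1 and S phase, Ccne1 had the largest fold change of all members. It was at 538, 552 and 568 FPKM in siCtrl 2-cell embryos, against 9.89, 2.07 and 4.25 in siCtrl zygotes (6.39 ± 0.40, limma adjusted p = 7.67e-06), and ranked 39 from the top of the 11094 genes tested. The fold change was 6.31 ± 0.61 in siEtv5, 6.49 ± 0.41 in siMlx and 6.11 ± 0.33 in siRfx1 embryos, and the 4 estimates differed by no more than the larger of their SEs. Cyclin E binds CDK2 at the start of S phase, and its other gene, Ccne2, stayed low in both stages, with 0.335, 7.31 and 4.98 FPKM in siCtrl 2-cell embryos, against 7.91, 5.66 and 6.09 in siCtrl zygotes, where the groups overlapped and the test was not passed. Ccne1 made up at least 94.4% of the summed FPKM of Ccne1 and Ccne2 in 2-cell libraries and 11.9 to 92.9% in zygote libraries. Ccnd1, a D-type cyclin that activates CDK4 and CDK6 in G1, was at 6.83, 16.4 and 10.3 FPKM in siCtrl 2-cell embryos, against 1.51, 1.57 and 1.52 in siCtrl zygotes (1.99 ± 0.33). All 2-cell libraries, at 1.66 to 21.3 FPKM, were above all zygote libraries, at 0.266 to 1.57, although the siRfx1 comparison alone, at 2.01 ± 0.76, missed the limit with a limma adjusted p of 0.0711. Ccnd3 was at 55.1, 49.1 and 37.2 FPKM in siCtrl 2-cell embryos, against 17.9, 22.0 and 22.0 in siCtrl zygotes, a change of 0.90 ± 0.22 that was under the 2-fold limit.

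Of the 4 CDKs, 3 rose. Cdk1, the CDK that drives mitosis, was at 80.4, 94.6 and 78.6 FPKM in siCtrl 2-cell embryos, against 4.73, 3.11 and 3.45 in siCtrl zygotes (3.94 ± 0.21, limma adjusted p = 4.75e-06). Over all siRNA groups it was at 33.7 to 95.8 FPKM in 2-cell libraries and 1.26 to 5.97 in zygote libraries, with no overlap. Cdk2, the partner of cyclins E and A, was at 140, 128 and 112 FPKM in siCtrl 2-cell embryos, against 11.1, 5.81 and 6.32 in siCtrl zygotes (3.67 ± 0.25). In siRfx1 embryos its 3 2-cell libraries were at 8.82, 33.7 and 55.1 FPKM, against 4.99, 6.41 and 5.92 in zygotes, which were apart but did not pass the test (1.77 ± 0.65, limma adjusted p = 0.0662). Cdk4 was at 7.55, 16.0 and 9.62 FPKM in siCtrl 2-cell embryos, against 3.43, 1.88 and 3.29 in siCtrl zygotes (1.39 ± 0.33), and this call was lost with 1 fit over all libraries (adjusted p = 0.134) and when the trend with transcript length was removed (0.82). Cdk6, the other partner of D-type cyclins, was at most 5.17 FPKM in any library.

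The CDC25 phosphatases, which remove the inhibitory phosphates from CDK1 and CDK2, moved in opposite directions. Cdc25c was at 61.1, 69.3 and 70.7 FPKM in siCtrl 2-cell embryos, against 0.903, 0.390 and 0.472 in siCtrl zygotes (5.25 ± 0.23, limma adjusted p = 3.30e-06). Cdc25b, the form required for meiotic resumption in mouse oocytes, was at 8.35, 5.16 and 8.40 FPKM in siCtrl 2-cell embryos, against 23.3, 22.8 and 28.1 in siCtrl zygotes (-1.89 ± 0.24). Cdc25a was at 20.2, 19.1 and 16.6 FPKM in siCtrl 2-cell embryos, against 29.7, 43.6 and 39.4 in siCtrl zygotes (-1.21 ± 0.22), a call that was lost on values as deposited. The groups did not overlap for any of the 3 genes. Cdc25c made up 45.7 to 82.6% of the summed FPKM of the 3 phosphatases in 2-cell libraries and 0.584 to 8.26% in zygote libraries.

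The kinases that oppose them likewise moved apart, the oocyte form down and the somatic form up. Wee2, an oocyte-specific kinase that keeps mouse oocytes in prophase arrest, was at 106, 84.6 and 109 FPKM in siCtrl 2-cell embryos, against 285, 236 and 233 in siCtrl zygotes (-1.58 ± 0.16, limma adjusted p = 5.83e-05). Wee1 was at 17.8, 27.5 and 14.9 FPKM in siCtrl 2-cell embryos, against 2.76, 2.44 and 2.49 in siCtrl zygotes (2.30 ± 0.28, limma adjusted p = 1.51e-04). Wee2 remained the more abundant of the 2 in 10 of 11 2-cell libraries. Wee1 had a median share of 14.35% of their summed FPKM in siCtrl 2-cell embryos, against 1.02% in siCtrl zygotes, and over all groups 8.21 to 75.8% in 2-cell libraries and 0.206 to 3.93% in zygote libraries. The highest share, 75.8%, was in siRfx1 2-cell replicate 1, where Wee2 was at 12.49 FPKM. Pkmyt1, a membrane-bound kinase with the same target, was at 17.4, 22.3 and 20.8 FPKM in siCtrl 2-cell embryos, against 8.28, 11.2 and 13.5 in siCtrl zygotes (0.60 ± 0.24, limma adjusted p = 0.0550), and it overlaps Paqr4 on the other strand.

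**Figure D2:**
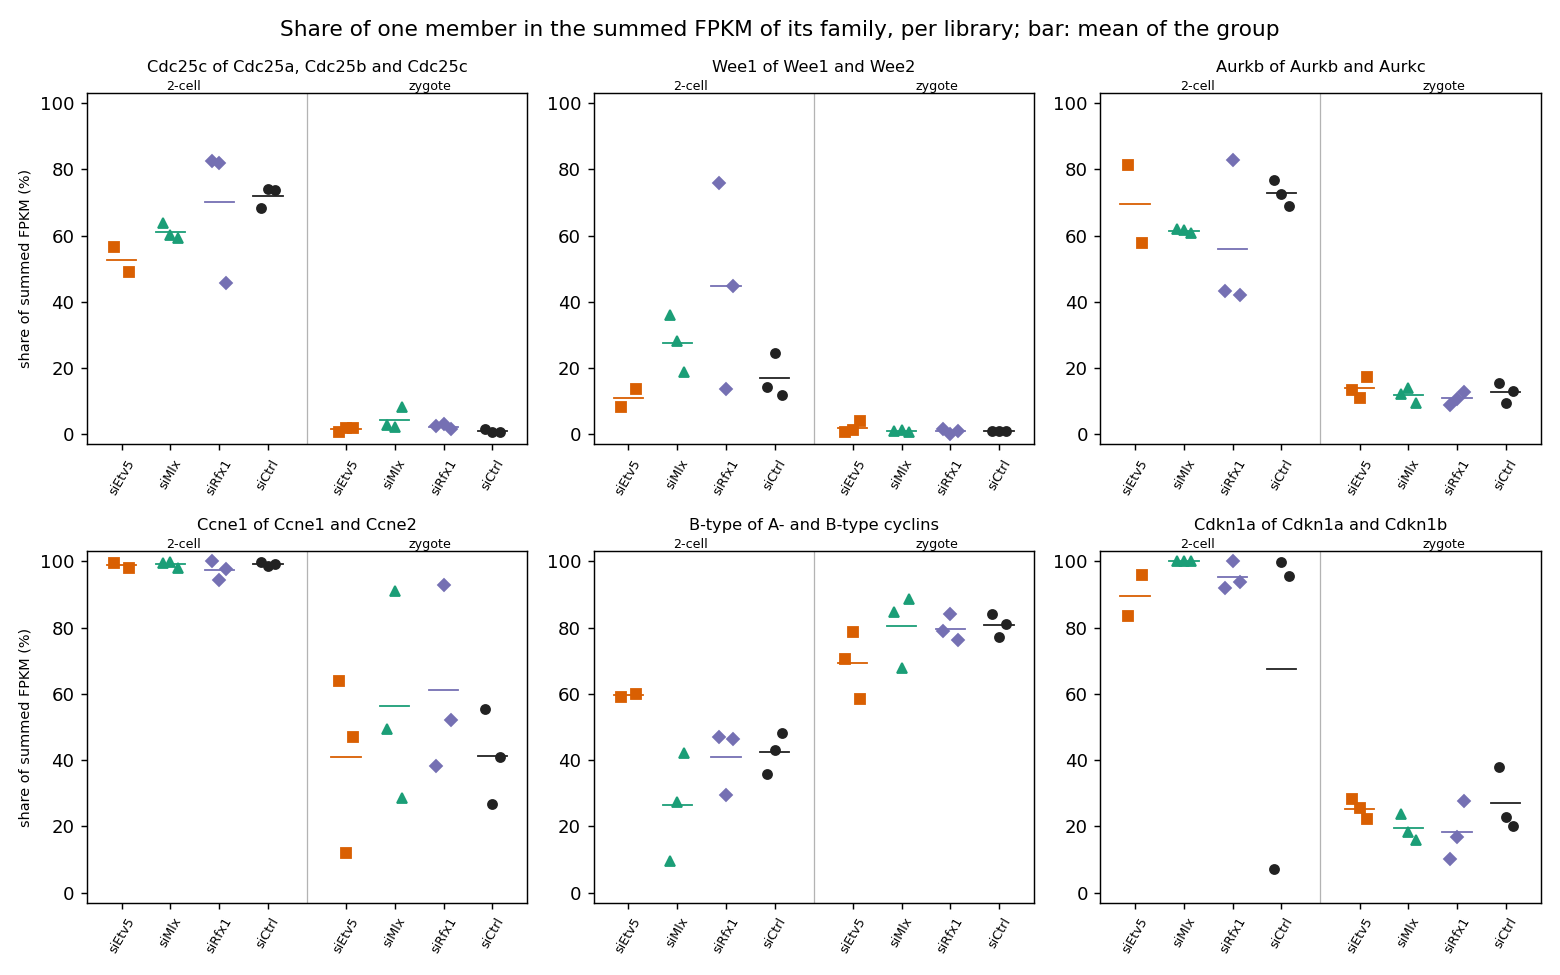
Share (%) of the summed FPKM of a gene family taken by the named member in each library, 2-cell embryos left of zygotes, with the mean of each group as a bar. The Cdc25c, Wee1, Aurkb and Ccne1 panels show no overlap between stages, the cyclin panel overlaps between siEtv5 libraries, and the Cdkn1a panel has a single low 2-cell library, siCtrl replicate 1 at 6.99%.

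Of the Aurora kinases, Aurkb rose and Aurkc fell. Aurkb, the kinase of the chromosomal passenger complex in dividing somatic cells, was at 58.7, 60.4 and 66.0 FPKM in siCtrl 2-cell embryos, against 12.05, 10.3 and 10.8 in siCtrl zygotes (2.14 ± 0.17, limma adjusted p = 2.01e-05). Aurkc, its germ cell counterpart, was at 17.6, 22.9 and 29.6 FPKM in siCtrl 2-cell embryos, against 65.0, 96.4 and 70.6 in siCtrl zygotes (-1.94 ± 0.25, limma adjusted p = 2.23e-04). Aurkb made up 42.1 to 82.9% of their sum in 2-cell libraries and 9.02 to 17.2% in zygote libraries. The mm9 windows printed above show a CPE near the 3′ end of both genes. Plk4, the kinase that starts centriole duplication, was at 34.6, 46.5 and 39.6 FPKM in siCtrl 2-cell embryos, against 189, 217 and 196 in siCtrl zygotes (-2.55 ± 0.17, limma adjusted p = 9.57e-06), and all 2-cell libraries, at 17.1 to 82.8, were below all zygote libraries, at 163 to 428. Plk1, the Polo kinase of mitotic entry and exit, and Aurka, a kinase of the spindle poles, were abundant in both stages without passing the test in siCtrl embryos, with fold changes of 0.15 ± 0.23 and 0.33 ± 0.14.

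Of the 5 members of the spindle assembly checkpoint, which holds back anaphase until chromosomes are attached, 1 rose and 2 fell in siCtrl embryos. Ttk, the kinase at the head of the checkpoint, was at 9.46, 2.81 and 6.75 FPKM in siCtrl 2-cell embryos, against 26.5, 21.1 and 20.7 in siCtrl zygotes (-2.03 ± 0.36, limma adjusted p = 0.00132). Bub3, which docks the BUB kinases at kinetochores, was at 36.6, 36.9 and 20.1 FPKM in siCtrl 2-cell embryos, against 70.8, 82.5 and 71.0 in siCtrl zygotes (-1.53 ± 0.26). Both were apart between the stages. Bub1, a kinetochore kinase, was low throughout and was called higher at 1.20 ± 0.30, a call lost with 1 fit over all libraries. Mad2l1, which binds Cdc20 to block it, and Bub1b had fold changes of -0.77 ± 0.13 and -0.65 ± 0.24, below the 2-fold limit.

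Regulators of the APC/C divided. Cdc20, its activator in mitosis, was at 466, 377 and 353 FPKM in siCtrl 2-cell embryos, against 87.4, 104 and 106 in siCtrl zygotes (1.74 ± 0.17, limma adjusted p = 4.55e-05). Cdc20 overlaps Elovl1 on the other strand. Fzr1, the activator used after mitosis and in the prophase arrest of oocytes, fell, at -1.30 ± 0.26 in siCtrl embryos and with all 2-cell libraries, at 0 to 18.3 FPKM, below all zygote libraries, at 22.3 to 76.3. Fbxo43, the inhibitor that keeps the mature egg arrested until fertilization, was at 10.1, 6.94 and 9.77 FPKM in siCtrl 2-cell embryos, against 75.2, 68.9 and 76.4 in siCtrl zygotes (-3.16 ± 0.20, limma adjusted p = 7.29e-06). Its mitotic counterpart Fbxo5 was at 172, 177 and 135 FPKM in siCtrl 2-cell embryos, against 125, 138 and 102.9 in siCtrl zygotes (0.15 ± 0.18, not passing the test). Fbxo5 made up 93.3 to 96.2% of the sum of both in siCtrl 2-cell embryos, against 57.4 to 66.7% in siCtrl zygotes.

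Securin and separase, which act together at anaphase, moved in opposite directions. Pttg1, securin, which holds separase inactive, was at 113, 80.3 and 116 FPKM in siCtrl 2-cell embryos, against 536, 308 and 477 in siCtrl zygotes (-2.32 ± 0.23, limma adjusted p = 6.03e-05). Espl1, separase itself, was at 21.6, 30.5 and 24.6 FPKM in siCtrl 2-cell embryos, against 4.41, 5.48 and 4.53 in siCtrl zygotes (1.95 ± 0.23, limma adjusted p = 1.30e-04). Neither gene overlapped between the stages in any siRNA group. Sgol1, a protector of centromeric cohesion, changed by 0.75 ± 0.20, under the 2-fold limit.

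In the chromosomal passenger complex beside its kinases, Birc5 (survivin) was at 123, 147 and 47.3 FPKM in siCtrl 2-cell embryos, against 167, 295 and 342 in siCtrl zygotes (-1.67 ± 0.45, limma adjusted p = 0.0107). Its scaffold Incenp and its subunit Cdca8 (borealin) were not called, at 0.78 ± 0.22 and 0.27 ± 0.15. Incenp was nevertheless above all zygote libraries, at 12.4 to 35.9 FPKM, in each of the 11 2-cell libraries, at 40.8 to 148. At the kinetochore, Cenpa, the histone H3 variant that marks centromeres, was at 399, 443 and 380 FPKM in siCtrl 2-cell embryos, against 88.6, 90.2 and 98.1 in siCtrl zygotes (1.87 ± 0.14, limma adjusted p = 1.29e-05), and was also apart over all groups. Cenpe, a kinetochore motor, was at 26.8, 19.6 and 35.7 FPKM in siCtrl 2-cell embryos, against 22.9, 20.2 and 19.7 in siCtrl zygotes, which overlapped.

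Of the 6 spindle motors and cytokinesis proteins, 2 rose in siCtrl embryos. Kif11, the motor that pushes spindle poles apart, and Kif20a, a motor of the central spindle, were called higher in siCtrl 2-cell embryos at 1.28 ± 0.21 and 1.23 ± 0.28, and the Kif11 call was lost with 1 fit over all libraries at an adjusted p of 0.0513. Kif20a overlaps Brd8 and Cdc23 on the other strand. Kif23, Tpx2, Prc1 and Anln, which build the central spindle, nucleate microtubules or organize the contractile ring, had fold changes of -0.44 to 0.57 and none was called.

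The last role joins the CDK inhibitors and Chek1. Chek1, the kinase that restrains CDC25 when DNA replication is incomplete, was at 15.3, 8.19 and 11.7 FPKM in siCtrl 2-cell embryos, against 149, 108 and 109 in siCtrl zygotes (-3.54 ± 0.25, limma adjusted p = 1.11e-05), the largest decrease of any member in siCtrl embryos. Cdkn1b (p27) was at 2.78, 0.317 and 4.72 FPKM in siCtrl 2-cell embryos, against 12.53, 17.2 and 22.6 in siCtrl zygotes (-2.75 ± 0.51, limma adjusted p = 0.00157), and was listed at 0 in all 3 siMlx 2-cell libraries. Both were below all zygote libraries in all 2-cell libraries. Cdkn1a (p21), a target of p53, was at 0.209, 149 and 101 FPKM in siCtrl 2-cell embryos, against 7.65, 5.09 and 5.72 in siCtrl zygotes (1.71 ± 1.59, limma adjusted p = 0.358), so 1 of the 3 2-cell libraries lay below all zygotes and the others far above. In siEtv5, siMlx and siRfx1 embryos it was at 21.6 to 95.8 FPKM in 2-cell embryos and 2.23 to 10.1 in zygotes and was called higher in each, at 2.53 ± 0.62, 3.70 ± 0.35 and 2.75 ± 0.63.

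**Figure D3:**
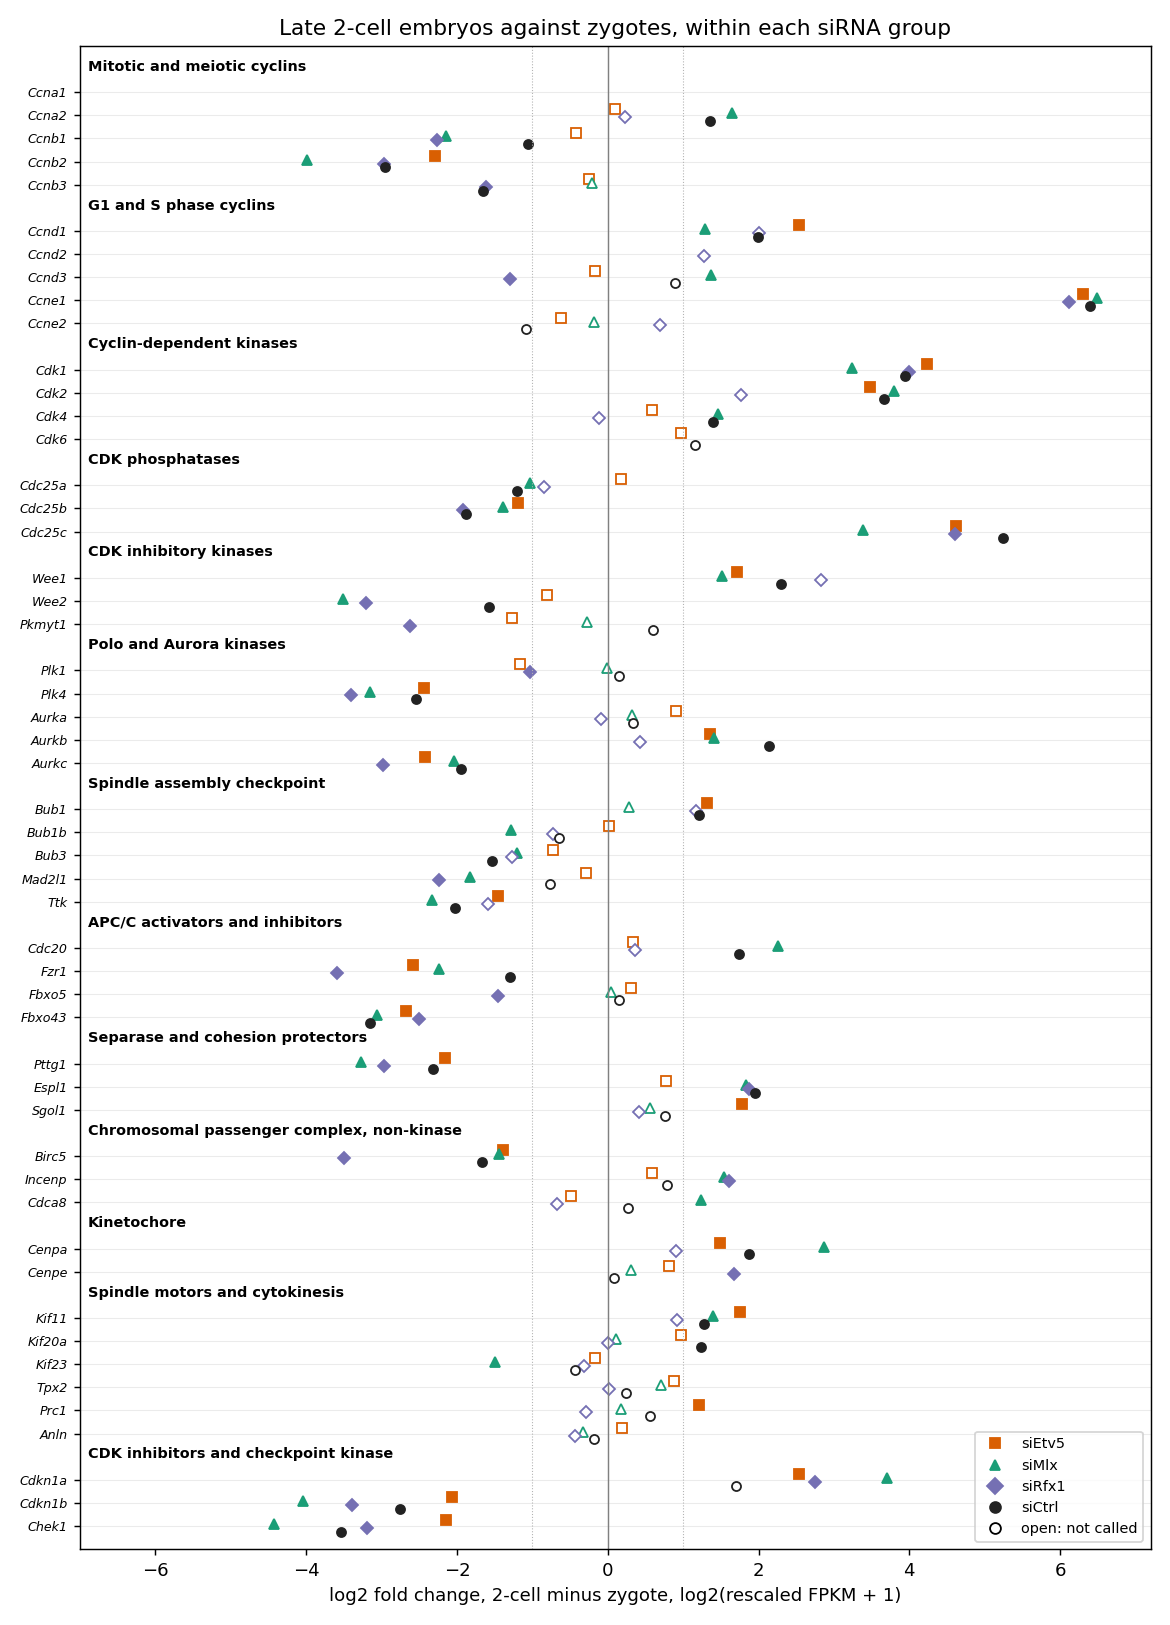
Log2 fold change of 2-cell embryos against zygotes for each member within siEtv5, siMlx, siRfx1 and siCtrl embryos, grouped by role, with filled markers for calls, open markers for members tested and not called, and no marker where a member was not tested. Ccne1 lies at 6.11 to 6.49 in the 4 groups, and Chek1 lies furthest left in siCtrl and siMlx embryos.

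Over all siRNA groups together, 7 members were higher in all 11 2-cell libraries than in all 12 zygote libraries: Ccnd1, Ccne1, Cdk1, Cdc25c, Espl1, Incenp and Cenpa. Another 9 were lower in all of them: Ccnb2, Wee2, Plk4, Aurkc, Fzr1, Fbxo43, Pttg1, Cdkn1b and Chek1. These are 14.3% and 18.4% of the 49 members that averaged 1 FPKM or more, against 16.5% and 11.7% of 10943 such genes. The summed FPKM of the 51 members was 0.835 to 1.72% of that of all named genes in 2-cell libraries and 0.900 to 1.04% in zygote libraries. The highest share, 1.72%, was in siMlx 2-cell replicate 1, where Cdc20 was at 1570.5 FPKM, Ccna2 at 1140.7 and Cenpa at 1113.1, each the highest value of that gene in the series. In the same library 33 of 47 members, 70.2%, were the lowest of the 3 siMlx 2-cell libraries, against 58.6% of all genes. That library had 404 Mb of aligned bases, the fewest of its group.

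Genes of the same pathways outside the list were counted for context, and their calls stood on both sides too. Of all 11094 genes tested in this comparison, 63.9% were called, 37.0% higher and 26.9% lower. Of 12 APC/C subunits tested in siCtrl embryos 2 were higher and 1 lower in 2-cell embryos, with Anapc7 at 2.26 ± 0.21 and Anapc4 at -1.78 ± 0.25. Of 9 genes of the Greatwall and PP2A pathway 2 were higher and 3 lower, with Ppp2cb at 4.38 ± 0.33 and Arpp19 at -2.73 ± 0.91. Of 6 genes of the Mos and MAPK pathway of egg arrest 1 was higher and 3 lower, with Map2k1 at -2.58 ± 0.15 and Map2k2 at 2.35 ± 0.21. Of 13 outer kinetochore genes 5 were higher and 1 lower, with Nuf2 at -2.59 ± 0.28 and Spc25 at 2.41 ± 0.53. Of 16 other spindle and cytokinesis genes 5 were higher and 2 lower, with Hmmr at 4.47 ± 0.25 and Kif2c at 2.22 ± 0.22. The SCF ubiquitin ligase, with 9 tested, had 3 higher and 4 lower, among them Skp2 at 3.06 ± 0.31 and Skp1a at -2.26 ± 0.14. The RB, E2F and DREAM genes, with 17 tested, had 5 higher and 3 lower, among them E2f5 at -3.58 ± 0.18 and E2f7 at 2.61 ± 0.25. All 5 other CDK inhibitors tested were higher, with Cdkn2d at 4.49 ± 0.61 and Cdkn3 at 2.499 ± 0.31. The 11 genes of the DNA damage checkpoint had 5 higher and 1 lower, with Chek2 at 5.05 ± 0.24 and Rad9a at 4.37 ± 0.23, in the opposite direction to Chek1. In 8 of these 9 lists calls were made in both directions, as they were among all genes tested.

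The siRNA groups were then set against siCtrl at each stage. The 3 comparisons of a stage share its siCtrl libraries. No member was called by limma in any of the 6 comparisons. This count depended on the processing in siRfx1 2-cell embryos, where 11 members were called with 1 fit over all libraries, 5 on values as deposited and 1 with a pseudocount of 0.1, and in siMlx zygotes, where 2 were called on values as deposited. The share of all genes called was 0% for siEtv5, 2.15% for siMlx and 0.0557% for siRfx1 in zygotes, and 0.251% for siEtv5, 0.00945% for siMlx and 3.56% for siRfx1 in 2-cell embryos. At an unadjusted p under 0.05, 8 of 46 members tested in siEtv5 zygotes, 13 of 47 in siMlx zygotes and 10 of 47 in siRfx1 zygotes passed, or 17.4, 27.7 and 21.3%, against 12.4, 24.7 and 14.6% of all genes. In 2-cell embryos 9 of 50 members passed for siEtv5, 12 of 49 for siMlx and 8 of 50 for siRfx1, or 18, 24.5 and 16%, against 15.5, 18.7 and 23.2% of all genes. Absence of a call does not show that levels were equal. The 95% interval of the fold change lay wholly within 2-fold for 20, 27 and 39 members in siEtv5, siMlx and siRfx1 zygotes, but for 27, 16 and only 8 in siEtv5, siMlx and siRfx1 2-cell embryos. The intervals were widest for siRfx1 2-cell embryos, whose libraries were the shallowest, with a median half-width of 1.33 on the log2 scale.

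The members nearest the limit were Cenpe, Ccnb1 and Wee2. Cenpe was at 55.2, 49.2 and 56.3 FPKM in siRfx1 2-cell embryos, against 26.8, 19.6 and 35.7 in siCtrl 2-cell embryos (1.67 ± 0.39, limma adjusted p = 0.0613), with no overlap. Ccnb1 was at 701, 503 and 846 FPKM in siMlx zygotes, against 546, 449 and 464 in siCtrl zygotes (0.82 ± 0.22, limma adjusted p = 0.0773), which overlapped before rescaling and not after it. Wee2 was at 18.6, 31.6 and 50.4 FPKM in the 2-cell libraries labelled siMlx, against 106, 84.6 and 109 in siCtrl 2-cell embryos (-1.40 ± 0.30, limma adjusted p = 0.0904), again with no overlap. Ccne1 was at 479 and 455 FPKM in siEtv5 2-cell embryos, 961, 620 and 549 in siMlx and 320, 362 and 498 in siRfx1, against 538, 552 and 568 in siCtrl. The siEtv5 and siRfx1 values lay below those of siCtrl as deposited, those of siRfx1 overlapped after rescaling, and no Ccne1 difference passed the test (limma adjusted p of 0.379 to 0.628). Of the wider pathway lists, 2 genes were called in siMlx zygotes, Ppp2r1a at -1.14 ± 0.20 and Skp1a at 1.05 ± 0.20. In addition 5 were called in siRfx1 2-cell embryos, of which Mos (3.18 ± 0.60), Mis12 (2.03 ± 0.43) and E2f1 (1.47 ± 0.27) were higher, and Cdkn2c and Cdkn3 were lower, listed at 0 in all 3 libraries.

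**Figure D4:**
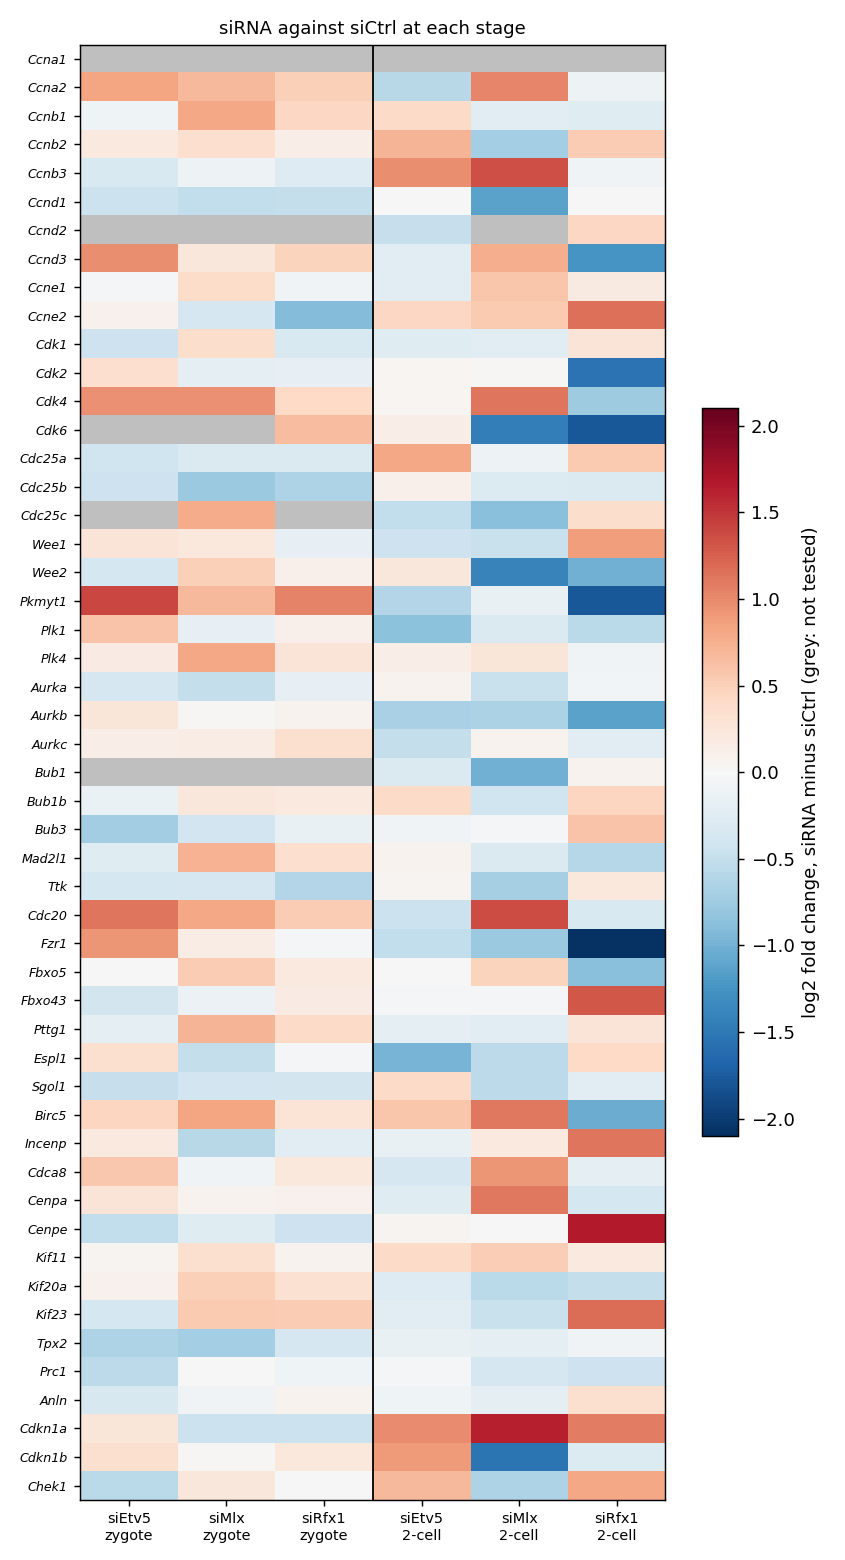
Log2 fold change of each siRNA group against siCtrl for the 51 members (rows), in zygotes (left 3 columns) and 2-cell embryos (right 3 columns), with red for higher and blue for lower in the siRNA group and grey where a member was not tested. None of these values was called, and they range from -2.07 to 1.67, both in siRfx1 2-cell embryos.

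Whether the stage difference itself differed between an siRNA group and siCtrl was tested with the interaction of stage and siRNA. For siEtv5 no member was called by limma, against 0.316% of all genes, and 11 of 49 members, or 22.4%, had an unadjusted p under 0.05, against 18.1% of all genes. For siMlx 1 member was called, Wee2, against 1.16% of all genes. Its stage difference was -3.51 ± 0.36 in siMlx and -1.58 ± 0.16 in siCtrl embryos, an interaction of -1.95 ± 0.39 (limma adjusted p = 0.0353). As deposited the zygote values overlapped, at 307, 208 and 341 FPKM in siMlx and 285, 236 and 233 in siCtrl. After rescaling they did not, with siMlx above siCtrl, so both stages entered the interaction. The 2-cell values given above did not overlap. Stage markers moved in the same interaction: 2 of 9 oocyte and zygote markers tested and 3 of 8 markers of the 2-cell embryo were called lower, with medians of -1.15 and -2.37, and their part in the Wee2 result was not tested. The call was lost on values as deposited (adjusted p = 0.0933), with 1 fit over all libraries (0.176) and when any of 9 single libraries was left out, namely siCtrl zygote or siCtrl 2-cell replicate 1, 2 or 3, siMlx zygote replicate 1 or 3, or siMlx 2-cell replicate 2.

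For siRfx1 5 of 50 members were called, or 10%, close to the 9.96% of all genes, 3.04% higher and 6.92% lower. These were Pkmyt1 (-3.01 ± 0.51), Cdk6 (-2.42 ± 0.56), Ccnd3 (-1.95 ± 0.41) and Cdc20 (-1.12 ± 0.31) with a lower and Cenpe (1.85 ± 0.39) with a higher stage difference. Pkmyt1 was at 1.60, 3.14 and 5.20 FPKM in siRfx1 2-cell embryos, against 17.4, 22.3 and 20.8 in siCtrl 2-cell embryos, and at 19.5, 18.7 and 24.3 in siRfx1 zygotes, against 8.28, 11.2 and 13.5 in siCtrl zygotes. Its groups were apart at both stages, in opposite directions. The same held for Ccnd3, Cdk6, Cdc20 and Cenpe. In siRfx1 zygotes Ccnd3 was at 23.6 to 28.7 FPKM, against 17.9 to 21.99 in siCtrl zygotes. Cdk6 was at 1.28 to 1.60 FPKM, against 0.542 to 0.734, and Cdc20 at 113 to 145, against 87.4 to 106. Cenpe was lower in siRfx1 zygotes, at 11.8 to 14.98 FPKM, against 19.7 to 22.9 in siCtrl zygotes. Both stages thus entered these interactions. Ccnd3, which overlaps Bysl on the other strand, was at 11.7, 9.07 and 14.5 FPKM in siRfx1 2-cell embryos, against 55.1, 49.1 and 37.2 in siCtrl 2-cell embryos. All of its FPKM was assigned to a transcript of 2118 bases in siRfx1 2-cell embryos and to one of 1979 bases in every other group, so its siRfx1 2-cell values rest on another transcript model. Cdk6 was listed at 0 in all 3 siRfx1 2-cell libraries, against 4.80, 0.848 and 5.17 FPKM in siCtrl 2-cell embryos, so its fitted value depends on the pseudocount and was -5.69 with a pseudocount of 0.1. It was also low in siMlx 2-cell embryos, at 0, 0 and 1.83 FPKM. Cdc20 was at 161, 202 and 223 FPKM in siRfx1 2-cell embryos, against 466, 377 and 353 in siCtrl 2-cell embryos.

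Transcript length moved with these results. In the 3 siRfx1 2-cell libraries the difference from the siCtrl mean rose by 0.304 to 0.358 on the log2 scale with each doubling of transcript length, against -0.0419 to 0.0577 in the other 2-cell libraries. Zygote libraries, which also enter the interactions, had slopes of -0.0978 to -0.0624 in siRfx1 and -0.150 to -0.101 in siMlx. Those of siEtv5 zygotes were -0.110 to 0.0203 and those of siCtrl zygotes -0.0199 to 0.0359. The length trend, the siRNA and the low depth of the 3 siRfx1 2-cell libraries cannot be told apart. Nor can the length trend and the siRNA in siRfx1 and siMlx zygotes, and their parts in the results were not tested. Cenpe, the called member that was higher, has the longest transcript of the 51 members, with 7813 bases. Cdc20, Ccnd3, Pkmyt1 and Cdk6, which were lower, have 1784, 1979, 2039 and 2470 bases, against a median of 2860. The Ccnd3 transcript assigned in siRfx1 2-cell embryos has 2118 bases. With the length trend removed, Pkmyt1 was still called (-2.28, limma adjusted p = 0.0222), while Ccnd3 (-1.20, 0.137), Cdk6 (-1.83, 0.0942), Cdc20 (-0.29, 0.656) and Cenpe (1.38, 0.0604) were not. Pkmyt1 was also called when any single library was left out, and so was Ccnd3. Cdk6 was not called without any one of the 6 zygote libraries or siCtrl 2-cell replicate 1 or 3 (adjusted p of 0.0512 to 0.0598). Cdc20 was not called without any one of the 6 zygote libraries, the 3 siCtrl 2-cell libraries or siRfx1 2-cell replicate 1, nor with no filter on low values (adjusted p = 0.0508), the replicate number as a block (0.0809) or 1 fit over all libraries (0.207), and Cenpe was not called without siRfx1 zygote replicate 3 (adjusted p = 0.0502).

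**Figure D5:**
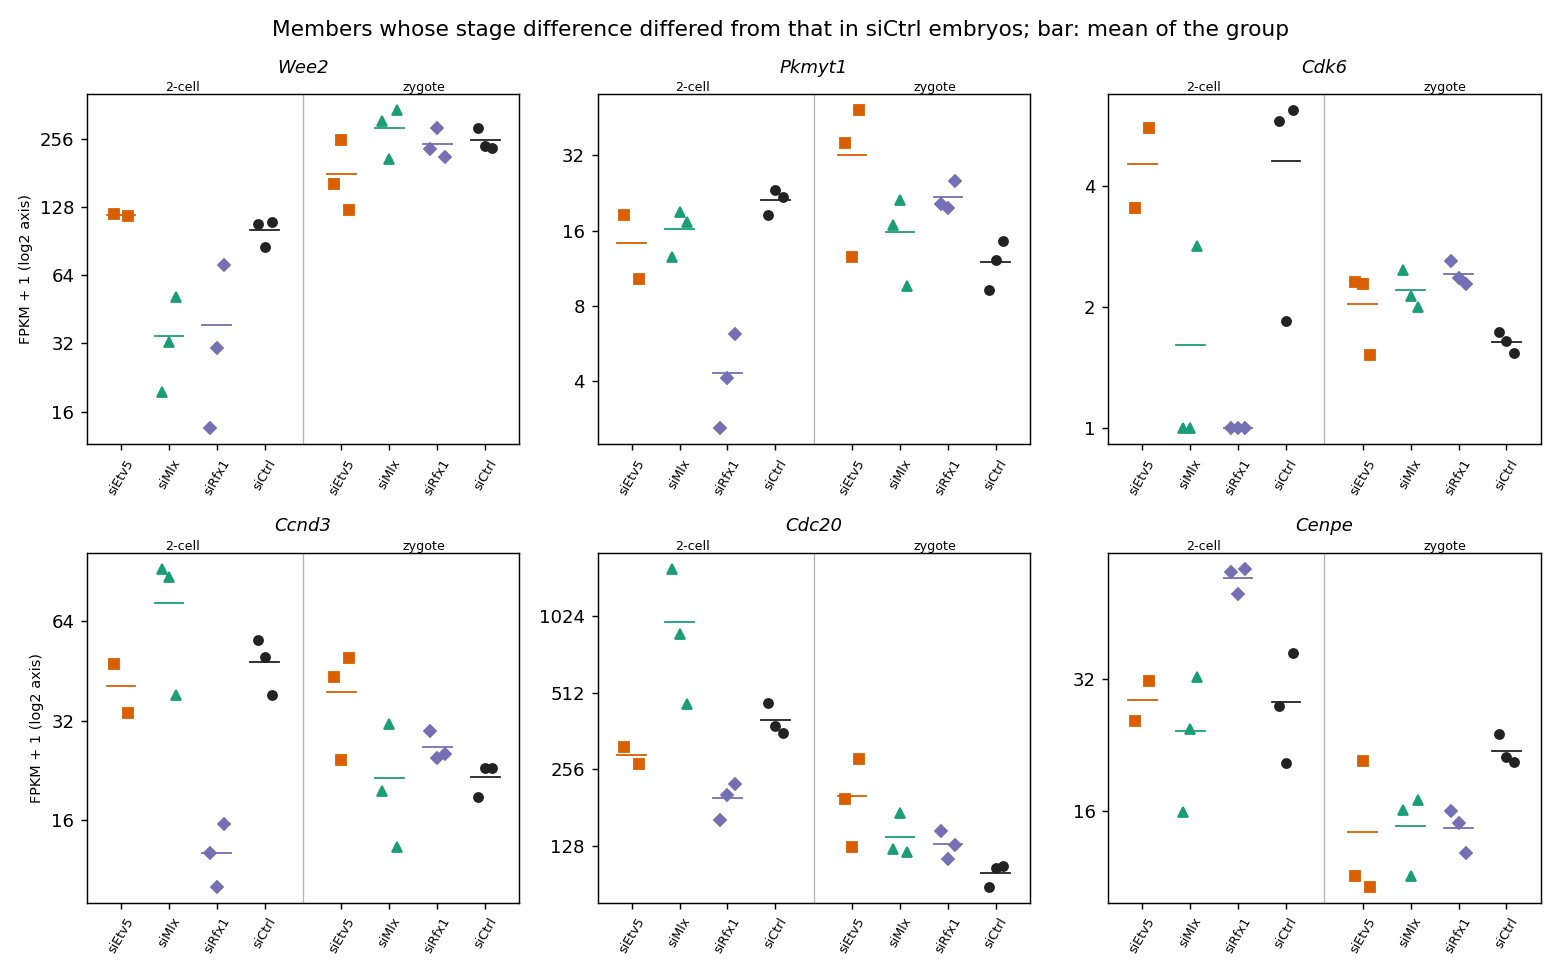
FPKM + 1 on a log2 axis for the 6 members called in an interaction of stage and siRNA, in each of the 23 libraries, 2-cell embryos left of zygotes, with the mean of each group as a bar. Wee2 is lower in siMlx than in siCtrl 2-cell libraries, Pkmyt1, Ccnd3 and Cdc20 are lower and Cenpe is higher in siRfx1 than in siCtrl 2-cell libraries, and Cdk6 is at 0 in all 3 siRfx1 2-cell libraries.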

How the data were processed

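Values came from 23 RNA-seq libraries of mouse zygotes and 2-cell embryos, grouped by the titles of the sample labels. The authors aligned reads to mm9 with STAR and estimated RefSeq transcript levels with StringTie, for which the submitters' notes give versions 2.5.2b and 1.3.4 and the file headers StringTie 1.3.3b, without a strand setting. The deposited transcript records hold coverage, FPKM and TPM, and only FPKM, normalized by the authors to library size and transcript length, and coverage were used. Read counts were not used here.

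FPKM was summed per gene over 29306 transcripts. Transcripts that name no gene (976, holding 0.610 to 1.48% of each library's FPKM) were dropped. Coverage over FPKM gave the aligned bases. For each comparison, median ratios, taken over genes reaching 1 FPKM in every library, set a common scale, genes averaging under 1 were removed, and log2(FPKM + 1) was fitted with limma 3.58.1 (R 4.3.3) with a mean-variance trend and Benjamini-Hochberg adjustment over all genes tested. Fits were tested on simulated data. The members, lists and tests were chosen with earlier results of these data known. Members described per library were the 25 called in siCtrl embryos with the largest fold change, and others mostly by fold change. Those named in the siRNA comparisons were chosen after their values were seen, by lowest adjusted p or by an interaction call. Of wider lists, up to 2 called genes with the largest change were named. Of the introns of members and expressed genes, 99% began with GT and ended with AG in the mm9 sequence, against 0.405% when shifted by 50 bases. Alternatives were another pseudocount, no filter, no rescaling, the replicate number as a block, removal of the length trend, 1 fit of all libraries and each library left out.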

Additional observations from a re-analysis of the deposited data

Results flagged for a closer look

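The stage difference, 2-cell against zygote, differed from that in siCtrl embryos for 6 results by the interaction term of limma. In siMlx embryos it was lower for Wee2 by -1.95 on the log2 scale (adjusted p = 0.0353). In siRfx1 embryos it was lower for Pkmyt1 by -3.01 (adjusted p = 0.00537), Cdk6 by -2.42 (0.0234), Ccnd3 by -1.95 (0.0156) and Cdc20 by -1.12 (0.0428), and higher for Cenpe by 1.85 (0.0156). The siRfx1 interaction was called for 10% of the members and 9.96% of all genes and the siMlx interaction for 1.16%. Pkmyt1 kept its call in all the alternatives run. The other 5 lost it in at least 1, and Ccnd3 only with the length trend removed.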

How the results depend on the processing

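Each called member, and for each of the 6 siRNA comparisons the member with the lowest adjusted p, was refitted under the alternatives, 127 results and 1535 refits in all, and no called value changed sign. A call was lost in 169 and gained in 3. Members called numbered 31, 24, 35 and 25 in the stage comparisons of siCtrl, siEtv5, siMlx and siRfx1 embryos, and 30 to 32, 10 to 28, 30 to 35 and 17 to 25 with single libraries left out; the lowest siEtv5 counts, 15 and 10, followed removal of 2-cell replicate 1 or 2, which left 1 library, assumed to vary like the zygotes. In the siRNA comparisons, without rescaling 2 members were called in siMlx zygotes (Cdc25b and Tpx2, lower) and 5 in siRfx1 2-cell embryos (all lower), where the median of all genes moved by -0.29 and -0.60. For siRfx1 2-cell embryos 1 was called with a pseudocount of 0.1 (Cenpe) and 11 with 1 fit of all libraries, 2 higher and 9 lower. Leaving out single libraries gave 0 to 1 in siEtv5 zygotes (Pkmyt1, without siEtv5 zygote replicate 2) and 0 to 3 in siMlx 2-cell embryos (Wee2, Cdc20 and Cenpa, without siMlx 2-cell replicate 3). Interaction calls numbered 0 to 10 for siEtv5 (10 without siEtv5 zygote replicate 2), 0 to 2 for siMlx (2 without siMlx 2-cell replicate 3) and 3 to 12 for siRfx1 (10 and 12 without siRfx1 2-cell replicate 2 or 3; 3 without any one of the 6 zygote libraries or siCtrl 2-cell replicate 1 or 3). The siMlx interaction gave 0 without rescaling and 0 with 1 fit, and siRfx1 gave 1 with the length trend removed. These changes have causes that were not tested. With the replicate block 122 of 127 results kept their side, and the siCtrl stage comparison had 31 calls. The correlation of same-numbered libraries ran from -0.128 to 0.273. It was taken on deviations from means of 2 or 3 libraries, which cancel, so it cannot show whether the numbers pair the libraries. Rescaling moved the median of all genes by 0.24 to 0.37 in the siCtrl, siEtv5 and siMlx stage comparisons. The siRfx1 2-cell libraries were the shallowest, and what depth contributed was not tested.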
